A study of Mus musculus with 22 samples.

Results

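The integrin and laminin genes of the mouse were followed across 6 types of epithelial cell sorted from colon crypts. Members were taken by symbol, as every gene named Itga or Itgb or as a laminin alpha, beta or gamma chain, which gave 37 of the 24421 genes counted. They comprised 26 integrin genes (18 alpha and 8 beta subunits) and 11 laminin genes (5 alpha, 3 beta and 3 gamma chains), and no measured value entered the choice. All 37 had reads and all 37 were among the 22781 genes tested. Lama3 and Lamb3, chains of laminin-332, were highest in enterocytes (Enterocyte), and Lama3 was far above its level in stem cells (Stem). Itga6 and Itgb4, which form the receptor for that laminin, were lowest in enteroendocrine cells (EEC). A further set of 18 members had a mean under 50 normalized counts in Stem, and for 16 of these no cell type had all its libraries more than 3 times above the level of other genes that are low in Stem.

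Integrins are cell surface receptors made of an alpha and a beta subunit, which bind proteins of the extracellular matrix or of other cells outside the cell and link to the cytoskeleton inside it. Laminins are trimers of an alpha, a beta and a gamma chain and a main component of the basement membrane, the sheet of matrix on which an epithelium rests. In gut epithelium the pair Itga6 and Itgb4 binds laminin and anchors cells through hemidesmosomes, and Itgb1 pairs with several alpha subunits to bind laminin or collagen. A separate group, the leukocyte integrins, is known from blood cells.

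RNA was sequenced from 22 bulk libraries of wild type male C57BL/6N mice, aged 5 to 7 weeks and without treatment, and these features were shared by all groups. Every gate took live cells that were Cd31-, Cd45- and Epcam+, after dissociation of the colon with EDTA and mechanical force. The 3 Stem libraries were further gated as Cd44highest with Cd24low and Ckit-, and the 3 of absorptive progenitors (AbsPro) as Cd44med/hi with Cd24low and Ckit-. The 4 SecPDG libraries, which hold secretory progenitor, deep crypt secretory and goblet cells together, were Cd44hi, Cd24med and Ckitmed, and the 5 Tuft libraries were Ckit+ and Cd24hi. The 5 Enterocyte libraries were Cd44low/- and Cd24-, and the 2 EEC libraries were Cd44low/- and Cd24+. Each Stem and AbsPro library came from 1 mouse, whereas the other libraries pooled sorted cells of several mice. Libraries were made from low amounts of RNA. Reads were counted without strand, so that in these counts reads of a gene and of an antisense partner cannot be told apart. In bulk libraries, fewer cells of a type and less RNA per cell cannot be told apart either.

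Between 4122122 and 22462518 reads fell on genes per library, and the Enterocyte and EEC libraries were shallower (5950619 to 12966128 and 4122122 to 13132315) than those of Stem (19900282 to 22462518). The mean share of reads in no annotated feature was 47.1% in Stem, 47.7% in AbsPro, 43.7% in SecPDG, 60.9% in Tuft, 76.3% in Enterocyte and 77.1% in EEC. Background was read from 1536 genes of families assumed to be mostly silent in the gut, olfactory receptors among them. That assumption was not tested. Their sum averaged 73.2 CPM (counts scaled to a common total) in Stem, 82.8 in AbsPro, 88.3 in SecPDG, 963 in Tuft, 2629 in Enterocyte and 3916 in EEC. The 2 EEC libraries stood apart from each other, with 7197 CPM on those families in EEC 1 against 636 in EEC 2. They had a Spearman correlation of 0.687 across genes, whereas libraries of every other type correlated at 0.869 or more. A floor is given for members with low values. It was set, in each library, at the upper quartile of reads per kilobase over the 13118 genes with a mean under 50 normalized counts in Stem, which averaged 1.27 normalized counts per kilobase in Stem, 2.51 in AbsPro, 2.43 in SecPDG, 17.03 in Tuft, 30.5 in Enterocyte and 40.6 in EEC (67.0 in EEC 1 and 14.1 in EEC 2). The labelled types were checked against marker genes. The summed Stem, Tuft and EEC markers were each higher in every library of their own type than in any other. The goblet markers of SecPDG overlapped those of Tuft (821521 to 3238459 against 783602 to 1181319 normalized counts). The enterocyte markers did not set Enterocyte (50808 to 75795) apart from AbsPro (67702 to 103504) or EEC (22570 to 135455). The deposited SecPDG and Tuft libraries carry a different name prefix from the other 4 types, and what this marks cannot be told apart from cell type.

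Each cell type was compared with Stem, as the study did, and 3 further pairs that share a lineage or a gate were compared with each other. A gene was called at an adjusted p under 0.01 (edgeR quasi-likelihood F test, Benjamini-Hochberg adjustment over all genes tested) if its mean over the libraries reached 50 normalized counts. In AbsPro, 0 members were called against Stem, against 0.342% of all genes called higher and 0.0219% called lower, while 8 members had an unadjusted p under 0.05 and DESeq2 called 3. Of all genes, DESeq2 called 420 there and edgeR 83. In SecPDG 1 member, Lamb1, was higher and 0 were lower (all genes 2.41% and 0.689%). In Tuft 10 members were higher and 0 lower (4.42% and 2.03%). In Enterocyte 15 were higher and 2, Itga6 and Lamc1, were lower (5.6% and 7.93%). In EEC 14 were higher and 4, Itga1, Itga6, Itgb4 and Lamb2, were lower (6.58% and 7.45%). These 5 comparisons share the 3 Stem libraries. The split depended on scaling: with the size factors of DESeq2 the counts were 20 higher and 2 lower in EEC, and with library totals alone 16 and 2 in EEC, 9 and 2 in Tuft and 1 and 1 in SecPDG. The calls over all genes moved as well. Those higher in EEC rose from 1500 to 3167 with the size factors of DESeq2 and to 2496 with library totals. With library totals those higher rose from 1006 to 1409 in Tuft and from 550 to 655 in SecPDG. Over all 6 cell types at once, 27 members, 18 integrins and 9 laminins, differed (25.4% of all genes).

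Most members called higher had few reads in Stem. Of the 18 members under 50 normalized counts in Stem, 10 were called higher in Tuft, 13 in Enterocyte and 13 in EEC. A gene that is low in Stem and passes a mean of 50 over all libraries has to be higher somewhere else, so these counts were set beside the 2340 genes of the table with that same profile, of which 25% were called higher in Tuft, 39.8% in Enterocyte and 46.2% in EEC. The median log2 fold change of those 18 members was 4.67 in Tuft, 5.53 in Enterocyte and 5.64 in EEC. It was -0.11, 0.10 and -0.27 for the 19 other members, against -0.09, -0.30 and -0.33 for all genes. With the size factors of DESeq2 the median of all genes moved from -0.30 to 0.36 in Enterocyte and from -0.33 to 0.53 in EEC. A move of that size is what the scaling can bring.

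**Figure D1:**
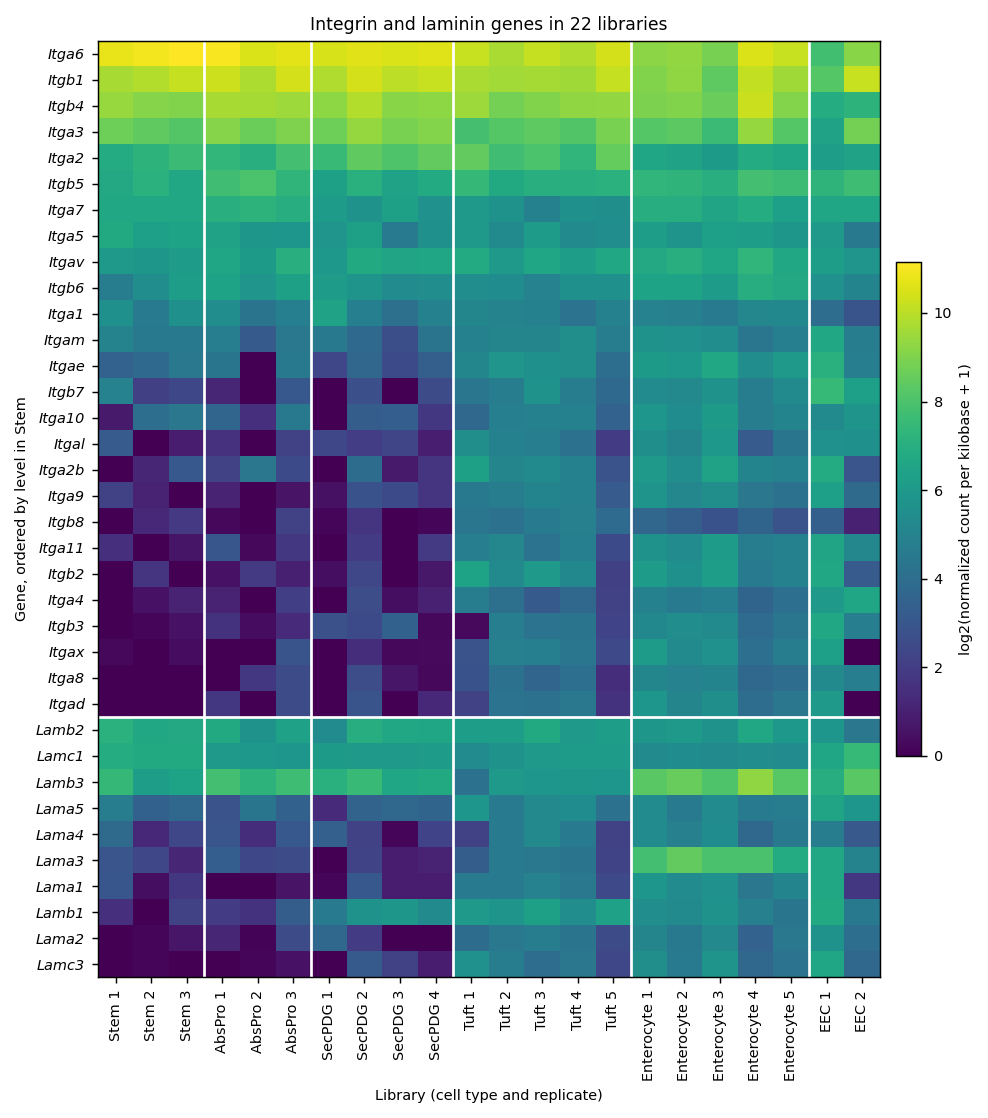
Level of 36 genes (rows) in each of the 22 libraries (columns, grouped by cell type), as log2 of normalized counts per kilobase plus 1, with integrins above laminins and each set ordered by its mean in Stem. The upper rows of each set are high in most libraries, and the lower rows, with means under 50 normalized counts in Stem, show signal in Tuft, Enterocyte and EEC libraries and most of all in EEC 1.

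Itga6, the alpha subunit of the main laminin receptor of epithelia, was the most abundant member in Stem. The gene lies on mouse chr2:71745616-71858416, + strand (mm10). The Stem libraries had 7754, 8682 and 9911 normalized counts, those of Enterocyte 2549, 2807, 2049, 6590.1 and 5251, and those of EEC 953 and 2521. AbsPro had 9077, 6442 and 7311, SecPDG 6140.3, 6946, 6376 and 6724 and Tuft 5147, 3703, 5014, 3998 and 6069.9. Every SecPDG, Tuft, Enterocyte and EEC library was below every Stem library. The means of AbsPro, SecPDG and Tuft lay between those of Stem and Enterocyte, and none of these types was called. Against Stem the log2 fold change was -2.34 ± 0.50 (SE; adjusted p = 0.00084) in EEC by edgeR, and this call was kept under all 31 alternatives tried. In Enterocyte it was -1.19 ± 0.36 (SE; adjusted p = 0.00994), just past the threshold (edgeR). That call was lost without any of 11 libraries, each left out by itself (adjusted p = 0.0103 to 0.0249, edgeR). Taking off a higher background (the floor above) left -0.39 in Enterocyte. Leaving out EEC 1 and Enterocyte 1, 2 and 3, the 4 libraries of highest background, left -0.46 in Enterocyte, no longer called. The same step gave -0.84 in Tuft, which then passed the threshold (edgeR). EEC was also below SecPDG, with a log2 fold change of -1.91 ± 0.48 (SE; adjusted p = 0.00316) by edgeR. These are levels of RNA. The paper describes Itga6 protein, by mass spectrometry, as high in every cell type alike, and protein was not read here.

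Itgb4, the beta subunit that pairs with Itga6 and joins hemidesmosomes to keratin filaments (chr11:115974709-116008412, + strand), was called against Stem in EEC alone, where it was lower. Its Stem libraries had 4456, 3583 and 3321 normalized counts and its EEC libraries 768 and 937. Both EEC libraries lay below the lowest library of any other type (2497), and they were close to each other although their background differed. Elsewhere it had 5255, 5057 and 4607 in AbsPro, 3858, 6036, 3721 and 3951 in SecPDG and 4709, 2873, 3346, 4061 and 4181 in Tuft. For EEC the log2 fold change was -2.15 ± 0.46 (SE; adjusted p = 0.00073) against Stem and -2.36 ± 0.45 (SE; adjusted p = 0.000213) against SecPDG (edgeR), and both were kept in every alternative. The Enterocyte mean of 4063 ± 2169 (SD, n = 5) came from libraries at 3107, 3394, 2497, 7885 and 3431, with Enterocyte 4 above every other library of the series.

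Itgb1, the common beta subunit of laminin and collagen receptors, was called in no comparison. It had 3143, 3567 and 4424 in Stem, 4766, 3394 and 5232 in AbsPro, 3491, 5249, 4067 and 4576 in SecPDG, 3236, 2988, 3033, 2911 and 4391 in Tuft, 1974, 2425, 1267, 4279 and 2918 in Enterocyte and 1143 and 4567 in EEC. EEC 1 was below all other libraries and EEC 2 was among them. Itga3, which pairs with Itgb1 in a laminin receptor, was not called either. Its libraries had 2143, 1797 and 1517 in Stem, 2915, 2097 and 2665 in AbsPro, 2149.8, 3529.8, 2527 and 2870.4 in SecPDG, 1209.6, 1557, 1732, 1439.9 and 2499.6 in Tuft, 1575, 1678, 1021, 3473 and 1562 in Enterocyte and 445 and 2337 in EEC, with overlap between all types but Stem and SecPDG. Itga2, the alpha subunit of a collagen and laminin receptor (chr13:114833081-114932100, - strand), had another pattern. It had 1285, 2461, 1911 and 2512 normalized counts in SecPDG, 2527, 1485, 1787, 1148 and 2619 in Tuft, 682, 609, 470.2, 819 and 673 in Enterocyte and 526 and 599 in EEC. Stem had 828, 1048 and 1381 and AbsPro 1180.4, 933 and 1584, and both overlapped SecPDG and Tuft. All libraries of these 4 types were above all Enterocyte and EEC libraries, by a small margin for the lowest Stem library (828 against 819 in Enterocyte). Itga2 was not called against Stem in any type. The log2 fold change of EEC against SecPDG was -1.86 ± 0.40 (SE; adjusted p = 0.000945) by edgeR, a call kept in every alternative. In that comparison 12 members were higher and 4 lower (all genes 6.65% and 8.35%), or 21 and 3 with the size factors of DESeq2. With those size factors the calls of a higher level over all genes rose as well, from 1516 to 3552.

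Itgb6, the beta subunit of an epithelial receptor for matrix and latent TGF-beta, had 154, 261 and 461 normalized counts in Stem and 531, 536, 432, 739 and 636 in Enterocyte. The lowest Enterocyte library lay below the highest Stem library, so that the groups overlapped, and the other types had 536, 333 and 480.2 in AbsPro, 422, 327, 247 and 262 in SecPDG, 266, 251, 183, 284 and 291 in Tuft and 296 and 189 in EEC. The difference, 0.98 ± 0.35 (SE; adjusted p = 0.023) on the log2 scale by edgeR, missed the threshold, and across all 6 types Itgb6 was called as different (adjusted p = 0.00645, edgeR). Its partner Itgav, an alpha subunit that binds RGD motifs, had 442, 414 and 486 in Stem, 647, 468 and 918 in AbsPro, 429, 769.6, 644 and 686 in SecPDG, 779.9, 439, 657, 535 and 693 in Tuft, 743, 897, 669, 1144 and 688 in Enterocyte and 513 and 391 in EEC. All Enterocyte libraries were above all Stem libraries, with a log2 fold change of 0.89 ± 0.30 (SE; adjusted p = 0.018) by edgeR, which missed the threshold. Itgb5, another partner of Itgav, had 359.5, 469.9 and 339.6 in Stem, 719.9, 865 and 529 in AbsPro, 271, 449, 286 and 378 in SecPDG, 579.8, 372, 446, 432 and 471 in Tuft, 540.03, 521, 424, 758 and 681 in Enterocyte and 519 and 694 in EEC. With the higher background taken off, Itgav, Itgb4 and Itgb5 were called higher in Enterocyte than in Stem, with log2 fold changes of 1.42, 0.90 and 1.24 (edgeR), and none of these was called without that step.

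**Figure D2:**
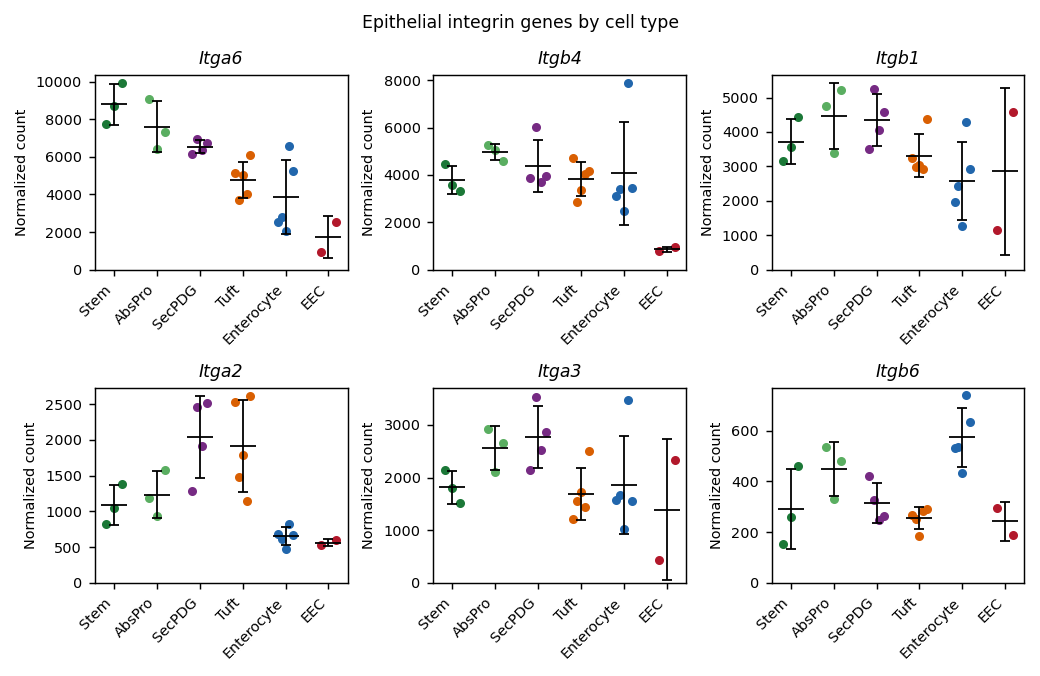
Normalized counts of 6 integrin subunits by cell type, with a point per library and lines for the mean ± SD (n = 3, 3, 4, 5, 5 and 2 libraries in the order drawn). Both EEC libraries of Itgb4, at 768 and 937, sit below all other libraries. All Stem, AbsPro, SecPDG and Tuft libraries of Itga2 sit above those of Enterocyte and EEC.

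Itga5, the fibronectin receptor subunit, and Itga7, a laminin receptor subunit known from muscle, had their highest means in Stem and AbsPro respectively and were not called against Stem. Each passed the threshold in 1 added alternative, Itga5 as lower in EEC with the higher background taken off (log2 fold change -4.03, adjusted p = 0.00533, edgeR) and Itga7 as lower in Tuft without EEC 1 and Enterocyte 1, 2 and 3, the 4 libraries of highest background (-1.05, adjusted p = 0.00854, edgeR). Itga5 had 480.4, 342 and 387 in Stem, 374, 254 and 248 in AbsPro, 243, 346, 102 and 206 in SecPDG, 271, 169, 298, 173 and 188 in Tuft, 334, 233, 343, 320.5 and 255 in Enterocyte and 275 and 95.9 in EEC. Itga7 had 423, 424 and 413 in Stem, 517, 600.2 and 508 in AbsPro, 286, 210.1, 327 and 199.8 in SecPDG, 261, 212, 119, 196 and 193 in Tuft, 502, 502, 375, 492 and 324 in Enterocyte and 389 and 396 in EEC. Tuft and Stem did not overlap, and the log2 fold change of Tuft was -1.10 ± 0.30 (SE; adjusted p = 0.011) by edgeR. Itga1, a collagen receptor subunit, had 526, 259.9 and 528 in Stem, 470.5, 201 and 301 in AbsPro, 942, 293, 179 and 319 in SecPDG, 367, 339, 319.8, 197 and 315 in Tuft, 322, 306, 262, 379 and 390.5 in Enterocyte and 165 and 71.6 in EEC. EEC lay below Stem, with a log2 fold change of -1.90 ± 0.56 (SE; adjusted p = 0.0092) by edgeR. The DESeq2 test gave -0.95 (adjusted p = 0.196), and the call was also lost with library totals. It was lost without any of 11 libraries, and the floor stood at 377% of the EEC mean. Itga10, another collagen receptor subunit, had 3.82, 78.1 and 102 in Stem, 57.2, 9.76 and 109 in AbsPro, 0, 44.8, 46.3 and 12.7 in SecPDG, 62.2, 139, 144, 145 and 52.7 in Tuft, 288, 212, 334, 130.02 and 159 in Enterocyte and 195 and 272 in EEC, and the floor was 87.6% of its EEC mean.

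Itga6 is made in 2 forms that differ in the cytoplasmic tail, the A form with exon 25 of transcript Itga6-201 and the B form, of transcript Itga6-202, without it. The exon spans chr2:71853534-71853663 (mm10, + strand, GENCODE annotation), is 130 bases long and leaves a remainder of 1 on division by 3, so that its skipping shifts the reading frame of what follows. The junctions that tell the forms apart are shown because the counts below are counts of reads of them and of the exon, with the 15 bases after the junction in capitals and the 15 bases before it, from chr2:71849492-71849506, in lower case.
Itga6 A form, exon 25 included: tttttactgtggaagTGTGGCTTCTTCAAG
Itga6 B form, exon 25 skipped: tttttactgtggaagTGTGGATTCTTTAAG

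Inclusion of that exon, from the skipped exon counts of rMATS corrected for length, was 63.2%, 43.0% and 43.3% in the 3 Stem libraries, in the order of the splicing tables, which do not say which library of the gene counts each is. In AbsPro it was 36.5%, 41.6% and 38.5%, below the lowest Stem value in all 3. In SecPDG it was 0%, 22.5%, 33.4% and 31.9%, again all below Stem. In Enterocyte it was 3.95%, 39.3%, 14.4%, 24.3% and 36.6%, also all below the lowest Stem value. In Tuft it was 97.6%, 31.2%, 1.61%, 38.2% and 30.4%. In EEC it was 100% and 12.2%, so that both types spread to either side of Stem. The spread in Tuft and EEC went beyond counting error. Exact 95% binomial intervals were 91.9% to 99.7% and 0.192% to 5.83% for Tuft libraries 1 and 3 of that order, and 73.1% to 100% (25 inclusion and 0 skipping reads) and 5.75% to 22.6% for those of EEC. The first SecPDG library had 0 inclusion reads of 133, with an exact upper limit of 1.201%. Reads are not marked by molecule, so that these intervals and limits cover counting error only.

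By an edgeR test of the paired inclusion and skipping counts, the change in log2 odds of inclusion against Stem was -0.64 ± 2.70 in AbsPro (SE; adjusted p = 0.923), -2.27 ± 2.25 in SecPDG (SE; adjusted p = 0.737) and -1.91 ± 1.77 in Enterocyte (SE; adjusted p = 0.627). None of these was called. Means were 49.8 ± 11.6% (SD, n = 3) in Stem, 38.9 ± 2.56% (n = 3) in AbsPro, 21.9 ± 15.4% (n = 4) in SecPDG, 39.8 ± 35.2% (n = 5) in Tuft, 23.7 ± 14.9% (n = 5) in Enterocyte and 56.1 ± 62.1% (n = 2) in EEC. Over all members, 3 skipped exon events were tested in AbsPro, 4 in SecPDG, 3 in Tuft, 6 in Enterocyte and 1 in EEC, and 0 were called at an adjusted p under 0.05 (edgeR), with 1 at an unadjusted p under 0.05. Of all 4293, 5283, 5464, 4756 and 1891 events tested in those comparisons, 0% were called. With no event of any gene called, this test cannot show that inclusion of a member exon was unchanged. The paper, with rMATS, did report changed events in these comparisons at an FDR under 0.05. The event with an unadjusted p under 0.05 (edgeR) was an exon of Itgb4 (chr11:116005897-116006055). Its inclusion was 0% in Stem and 28.8 ± 41.5% in Enterocyte (adjusted p = 0.627, edgeR). The Stem libraries had 24, 34 and 38 reads, and those of Enterocyte had 1 to 12. Inclusion in Enterocyte was 100% (from 1 read), 0%, 27.7%, 16.1% and 0%.

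**Figure D3:**
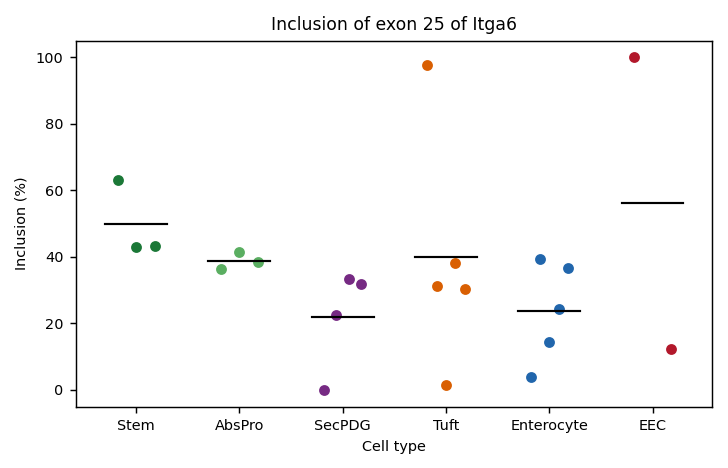
Inclusion of exon 25 of Itga6 (percent) by cell type, with a point per library of the splicing tables and a line at the mean. All AbsPro, SecPDG and Enterocyte points lie below the lowest Stem point of 43.0%, and Tuft and EEC points spread from near 0 to near 100%.

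The end of the transcript was also read, as the share of the distal polyadenylation site that DaPars gave. Transcripts of members were tested in AbsPro (5), SecPDG (4), Tuft (4) and Enterocyte (3), and no distal share was tested in EEC. By limma 0 were called at an adjusted p under 0.05 and 0 had an unadjusted p under 0.05, against 0%, 0.0237%, 0.0614% and 0.0408% of all transcripts called. The distal share of Itga6 was 0.333 ± 0.0551 (SD) in Stem and 0.55 ± 0.2 (SD) in SecPDG (adjusted p = 0.847, limma).

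Lama3, the alpha chain of laminin-332, had 72.7, 44.2 and 14.1 normalized counts in Stem and 2400.1, 3813, 2634, 2611 and 1248 in Enterocyte. Every Enterocyte library was far above every library of Stem, AbsPro (97.5, 47.2 and 54.4), SecPDG (0, 42.3, 8.42 and 12.7) and Tuft (93.98, 247, 224, 201 and 40.99). The 2 EEC libraries lay at 1106 and 329, above all of those 4 types. The log2 fold change of Enterocyte was 5.86 ± 0.75 (SE; adjusted p = 9.02e-07) against Stem and 5.25 ± 0.73 (SE; adjusted p = 3.1e-05) against AbsPro (edgeR), and both calls were kept in every alternative. The floor was 12.9% of the Enterocyte mean, and all 5 Enterocyte libraries were more than 3 times above it. In the comparison of Enterocyte with AbsPro 5 members were higher and 0 lower (all genes 1.91% and 3.18%). EEC was above SecPDG by 5.55 ± 0.72 (SE; adjusted p = 9.79e-07) on the log2 scale, kept in every alternative. It was above Stem by 4.04 ± 0.74 (SE; adjusted p = 0.000154), which was lost with the higher background taken off (log2 fold change 4.42, adjusted p = 0.026; edgeR throughout). Lama3 in Tuft was above SecPDG, with a log2 fold change of 3.40 ± 0.63 (SE; adjusted p = 0.00102) by edgeR, and was the only member called there (1 higher and 0 lower, all genes 0.865% and 0.0351%). None of the 5 Tuft libraries was above the floor, and the call was lost without SecPDG 3 (adjusted p = 0.0128, edgeR).

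Lamb3, the beta chain of laminin-332 (chr1:193207699-193343878, + strand), had 868, 388 and 455 normalized counts in Stem and 1599.6, 1924, 1389.8, 3199 and 1554 in Enterocyte. All Enterocyte libraries were above all Stem libraries, and the others had 1139, 761 and 1059.8 in AbsPro, 692, 955, 486 and 559 in SecPDG and 626 and 1622 in EEC. Enterocyte against Stem gave a log2 fold change of 1.76 ± 0.40 (SE; adjusted p = 0.00166) by edgeR, and it was lost without Stem 2 (adjusted p = 0.0186) or Stem 3 (adjusted p = 0.015) (edgeR). Tuft had the lowest level, 85.4, 329, 296, 304 and 295, all below the lowest Stem library of 388. Its log2 fold change of -1.12 ± 0.37 (SE; adjusted p = 0.0252) by edgeR missed the threshold.

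Per kilobase of exon, which allows chains to be set beside each other, Lama3 and Lamb3 had means of 236 and 377 normalized counts in Enterocyte. In Stem the same levels were 4.06 and 111, in SecPDG 1.48 and 131, and in EEC 66.8 and 219. The beta chain thus had reads well above the alpha chain in Stem and SecPDG, whereas in Enterocyte the alpha chain came nearer to it.

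Laminin-511 is the other main laminin of intestinal basement membranes, and its chains differed from each other in pattern. Lamc1, its gamma chain and the only one of the 3 that is abundant in Stem, had 900.4, 835 and 824 normalized counts in Stem and 288, 322, 298, 325 and 309 in Enterocyte. The groups were tight and did not overlap, and the log2 fold change was -1.47 ± 0.27 (SE; adjusted p = 0.000141) by edgeR (-2.75, adjusted p = 0.0254 and no longer called, with the higher background taken off). AbsPro (479, 462 and 431), SecPDG (508, 487, 495 and 533) and Tuft (314, 389.9, 478, 535 and 518) were also below every Stem library, with log2 fold changes against Stem of -0.90 ± 0.31 (SE; adjusted p = 0.216), -0.75 ± 0.28 (SE; adjusted p = 0.119) and -0.93 ± 0.27 (SE; adjusted p = 0.0136) by edgeR, none of which was called. EEC had 703 and 1343.

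Lamb1, the beta chain of laminin-511 (chr12:31265234-31329644, + strand), was the only member called in SecPDG. It had 10.7, 0 and 20.9 normalized counts in Stem and 139.9, 291, 340.3 and 221 in SecPDG. All SecPDG libraries were above all Stem and AbsPro (16.2, 12.2 and 51.6) libraries, and the floor was only 5.72% of the SecPDG mean. Against Stem the log2 fold change was 4.55 ± 0.77 (SE; adjusted p = 0.000112) by edgeR, or 5.52 with an adjusted p of 0.0401, no longer called, when the higher background was taken off. Tuft, with 360.1, 314, 473, 253 and 484, was higher than Stem with a log2 fold change of 5.15 ± 0.78 (SE; adjusted p = 1.53e-05) by edgeR, and the floor was 26.4% of the mean. In Enterocyte (255, 231, 303, 162 and 114) the floor was 83.8% of the mean and in EEC (629 and 129) 62.5%. The log2 fold changes against Stem there were 4.33 ± 0.75 (SE; adjusted p = 7.72e-05) and 5.15 ± 0.83 (SE; adjusted p = 2.77e-05) by edgeR. With the higher background taken off, the log2 fold changes were 6.13 in Tuft, 4.04 in Enterocyte and 6.44 in EEC, and all 3 calls were lost (adjusted p = 0.016, 0.0583 and 0.0107, edgeR).

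Lama5, the alpha chain of laminin-511, was highest in EEC, with 1038 and 643 normalized counts against 291, 114 and 143 in Stem and 17.96, 122, 138 and 127 in SecPDG. Both EEC libraries were above all libraries of Stem, AbsPro, SecPDG and Enterocyte, and the other types had 72.1, 219 and 113 in AbsPro, 652, 259.96, 426, 470.4 and 189.9 in Tuft and 461, 262, 468, 263 and 287 in Enterocyte. In EEC the log2 fold change was 3.05 ± 0.55 (SE; adjusted p = 0.000105) against SecPDG and 2.20 ± 0.59 (SE; adjusted p = 0.00493) against Stem (edgeR). The call against Stem was lost without Stem 2 (adjusted p = 0.0352), Stem 3 (adjusted p = 0.0289) or EEC 1 (adjusted p = 0.0775), the floor was 54.96% of the EEC mean, and with the higher background taken off neither was called (log2 fold changes 3.44 and 2.17, adjusted p = 0.0832 and 0.326, edgeR). Lamb2, a beta chain of other laminins, had 774, 581 and 593 in Stem and 319.98 and 116 in EEC, without overlap, and 611, 294 and 459 in AbsPro, 226, 686, 549 and 523 in SecPDG, 426, 429, 608, 361 and 417 in Tuft and 326, 357, 282, 549 and 342 in Enterocyte. Its log2 fold change of -1.58 ± 0.47 (SE; adjusted p = 0.0094) by edgeR was lost without any of 10 libraries, each left out by itself. It was also lost with the replicate block, with library totals, with the size factors of DESeq2 and in the DESeq2 test, which gave -0.61 (adjusted p = 0.2865).

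**Figure D4:**
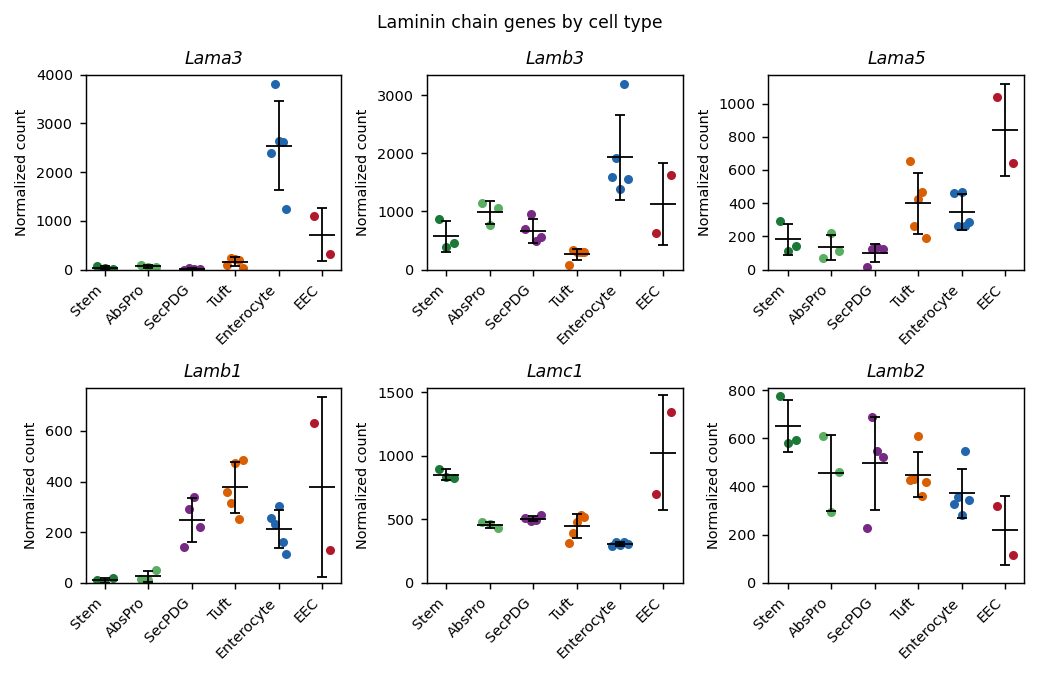
Normalized counts of 6 laminin chain genes by cell type, Lama3 and Lamb3 of laminin-332, Lama5, Lamb1 and Lamc1 of laminin-511, and Lamb2, with a point per library and lines for the mean ± SD. Enterocyte libraries lie above all Stem libraries for Lama3 and Lamb3 and below them for Lamc1.

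The leukocyte integrins belong to cells that the Cd45- gate is meant to remove, and their means were low in Stem, AbsPro and SecPDG and higher in the other types. Itgal, the alpha subunit of LFA-1, had normalized counts of 52.02, 0 and 5.39 in Stem, 12.7, 0 and 22.5 in AbsPro, 26.5, 19.9, 25.3 and 5.88 in SecPDG, 287, 182, 169, 112 and 18.4 in Tuft, 291, 211, 393, 52.5 and 122 in Enterocyte and 307 and 305 in EEC. Itgb2, its beta subunit, had 0, 6.40 and 0 in Stem, 1.41, 8.13 and 2.81 in AbsPro, 0.945, 12.4, 0 and 1.96 in SecPDG, 259, 117, 191, 106 and 10.04 in Tuft, 211, 139, 216, 71.9 and 85.9 in Enterocyte and 298 and 24.3 in EEC. For Itgb2 every Tuft and Enterocyte library was above every Stem library, and the log2 fold changes by edgeR were 5.89 ± 1.46 (SE; adjusted p = 0.00546) and 5.97 ± 1.47 (SE; adjusted p = 0.00292). The Tuft call was lost without Stem 1 (adjusted p = 0.0304), Stem 3 (adjusted p = 0.0291) or Tuft 3 (adjusted p = 0.0112) and with background taken off (edgeR). The Enterocyte call was lost without Stem 1 (adjusted p = 0.0168) or Stem 3 (adjusted p = 0.0164) and without the 4 libraries of highest background (adjusted p = 0.0279, edgeR). With the higher background taken off neither was called (log2 fold changes 6.36 and 6.52, adjusted p = 0.128 and 0.0746, edgeR). The floor stood at 37.04% of the Itgb2 mean in Tuft, 62.7% in Enterocyte and 74.7% in EEC.

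Itgam, Itgax and Itgad, the other alpha partners of Itgb2 in myeloid cells, were uneven between the 2 EEC libraries. Itgax had normalized counts of 0.765, 0 and 1.35 in Stem, 0, 0 and 28.1 in AbsPro, 0, 7.46, 0.842 and 0.979 in SecPDG, 26.9, 122, 116, 86.3 and 19.2 in Tuft, 293, 171, 213, 68.4 and 107 in Enterocyte and 336 and 0 in EEC. Itgad had 0, 0 and 0 in Stem, 10.6, 0 and 20.6 in AbsPro, 0, 27.4, 0 and 5.88 in SecPDG, 14.6, 78.2, 72.04, 90.9 and 9.20 in Tuft, 246, 142, 199.9, 63.9 and 88.6 in Enterocyte and 268 and 0 in EEC. EEC 1 alone carried both in EEC, and in Enterocyte the floor stood at 77.7% of the mean of Itgax and 88.5% of that of Itgad. Itgam had 153, 106 and 107 in Stem, 129, 39.04 and 105 in AbsPro, 109, 64.7, 26.96 and 90.1 in SecPDG, 140.4, 163, 159, 219.7 and 123 in Tuft, 253, 241, 213, 98.1 and 132 in Enterocyte and 495 and 124 in EEC and was not called. Itgae, which with Itgb7 marks intraepithelial lymphocytes, had 39.8, 50.6 and 80.2 in Stem, 74.2, 0 and 84.4 in AbsPro, 16.1, 44.8, 17.7 and 36.2 in SecPDG, 131, 216, 182, 174 and 59.4 in Tuft, 256, 235, 377, 167 and 241 in Enterocyte and 522 and 101 in EEC. Itgb7 had 80.3, 8.96 and 11.5 in Stem, 3.53, 0 and 19.7 in AbsPro, 0, 14.9, 0 and 13.7 in SecPDG, 52.5, 66.9, 138, 66.7 and 35.1 in Tuft, 109.8, 98.7, 136, 67.3 and 104 in Enterocyte and 466 and 209 in EEC. The EEC libraries of both were above all SecPDG libraries, and both were called higher in EEC than in SecPDG, with log2 fold changes by edgeR of 3.44 ± 0.87 (SE; adjusted p = 0.00346) for Itgae and 5.56 ± 1.33 (SE; adjusted p = 0.00217) for Itgb7. Without EEC 1 these were 1.65 (adjusted p = 0.251) and 4.77 (adjusted p = 0.0163), and neither was called (edgeR). Both calls were also lost with the replicate block and without the 4 libraries of highest background. The floor was 50.05% of the EEC mean of Itgae and 32.2% of that of Itgb7.

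Itga4, which pairs with Itgb7 or Itgb1 in lymphocytes, had the highest EEC level of the low members, with normalized counts of 0, 4.48 and 10.8 in Stem, 11.3, 0 and 30.9 in AbsPro, 0, 50.98, 3.37 and 9.79 in SecPDG, 239, 159, 77.1, 118 and 35.1 in Tuft, 284, 225, 261, 108 and 152 in Enterocyte and 638 and 908 in EEC. EEC 2, the EEC library with the lower background, was the higher of both. The log2 fold change was 7.20 ± 1.32 (SE; adjusted p = 0.000154) by edgeR, and of the alternatives only taking off the higher background lost it (log2 fold change 11.69, adjusted p = 0.0884). The floor was 51.3% of the EEC mean, which averages 2 unlike libraries, with floors of 67.0 normalized counts per kilobase in EEC 1 and 14.1 in EEC 2.

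Markers of other cells were read in the same libraries. The 11 immune markers found (of 12 listed, and including Itgam) summed to between 210 and 224 normalized counts in Stem, 126 and 250.1 in AbsPro, 40.4 and 168 in SecPDG, 1577 and 3577 in Tuft, 505 and 1326 in Enterocyte, and 703 and 3077 in EEC. A sum of the floors over the same genes came to 513 in Tuft, 920 in Enterocyte and 1222 in EEC. Ptprc, which encodes Cd45, had a mean of 1671 in Tuft and was the only 1 of the 11 called there (log2 fold change 6.51, adjusted p = 2.79e-07, edgeR). It was also called higher in Enterocyte (mean 115) and EEC (mean 427), together with Csf1r in both. On average Ptprc made up most of the immune sum in Tuft, where the means of the other markers ran from 15.8 (Lyz2) to 161 (Itgam). Cd79a was at 0 in both EEC libraries. The 8 markers of intraepithelial lymphocytes summed to 14.1 to 29.8 in Stem, 0 to 391 in Tuft (floor 178), 198 to 483 in Enterocyte (floor 319), and 233 and 1913 in the 2 EEC libraries (floor 424). The 8 myeloid markers summed to 521 to 734 in Stem, 296 to 599 in Tuft (floor 309), 679 to 959 in Enterocyte (floor 554) and 153 and 1482 in EEC (floor 736). The 8 stromal markers summed to 150 to 382 in Stem, 240.1 to 837 in Tuft (floor 639), 689 to 1606 in Enterocyte (floor 1145) and 432 to 2630 in EEC (floor 1521). The 4 endothelial markers summed to 9.60 to 18.9 in Stem, 170 to 586 in Tuft (floor 319), 334 to 783 in Enterocyte (floor 572) and 826 to 1340 in EEC (floor 761). The median sum of each of these lists was higher in Tuft, Enterocyte and EEC than in Stem, as for most low members, except for the myeloid markers in Tuft (585 against 603). Most of the myeloid sum in Stem was Cd14, with means of 549 in Stem and 223 in Tuft. The median log2 fold change of the 8 myeloid markers in Tuft was 2.24, with 0 called. Their part in the results on low members was not tested.

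The other low members were Itga2b, Itga8, Itga9, Itga11, Itgb3, Itgb8, Lama1, Lama2, Lama4 and Lamc3, which are known from platelets, nerve, muscle or stroma among other tissues. Their means ran from 0 to 38.1 normalized counts in Stem, from 61.1 to 195 in Tuft, from 75.2 to 375 in Enterocyte and from 43.1 to 503 in EEC. Itga8 and Itgad had 0 reads in all Stem libraries. With 3 counts per Stem library as the limit that 0 allows, Itga8 was at least 29.4-fold higher in Tuft, 67.7-fold in Enterocyte and 89.96-fold in EEC. Itgad was at least 25.5-fold higher in Tuft and 71.2-fold in Enterocyte, and in EEC it had reads in EEC 1 alone. The floor was above the mean of Itga8 in all 3 types, and it was 138% of the Itgad mean in Tuft. Lamc3 and Itgax had 1 to 3 reads in Stem, too few for a fold. Over the 10 genes the floor stood at 45.5% to 162% in Tuft, 60.1% to 341% in Enterocyte and 63.4% to 790.4% in EEC, as a share of the gene's mean.

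Of the integrins among them, Itga2b, the platelet fibrinogen receptor subunit, had normalized counts of 0, 4.48 and 25.6 in Stem, 12.01, 69.9 and 15.9 in AbsPro, 0, 49.7, 2.53 and 7.83 in SecPDG, 276, 112, 133, 100.1 and 21.8 in Tuft, 218, 149, 296, 111 and 99.7 in Enterocyte and 399.5 and 23.1 in EEC. Itga8, a subunit known from kidney and smooth muscle, had 0, 0 and 0 in Stem, 0, 14.6 and 28.1 in AbsPro, 0, 29.8, 3.37 and 0.979 in SecPDG, 35.4, 102, 65.7, 92.01 and 10.04 in Tuft, 193, 171, 181, 70.7 and 87.2 in Enterocyte and 222 and 152 in EEC. Itga9, which binds tenascin, had 26.01, 7.68 and 0 in Stem, 8.48, 0 and 3.75 in AbsPro, 2.84, 42.3, 33.7 and 15.7 in SecPDG, 155, 174, 224, 207 and 57.7 in Tuft, 383, 246, 317, 147 and 125 in Enterocyte and 555 and 97.1 in EEC. For these 3 genes every Enterocyte library was above every Stem library, and the lowest Tuft library of Itga2b was within the Stem range. Itga11, a collagen receptor subunit of fibroblasts, had 9.18, 0 and 2.70 in Stem, 33.9, 0.813 and 12.2 in AbsPro, 0, 14.9, 0 and 13.7 in SecPDG, 129, 172, 88.5, 133 and 23.4 in Tuft, 262, 203, 355, 123 and 145 in Enterocyte and 448 and 175 in EEC. Itgb3, the partner of Itga2b and Itgav, had 0, 0.64 and 2.70 in Stem, 12.01, 1.63 and 9.38 in AbsPro, 33.1, 27.4, 58.1 and 0.979 in SecPDG, 1.22, 154, 104, 108 and 21.8 in Tuft, 208, 248, 229.9, 79.8 and 115 in Enterocyte and 586 and 154 in EEC. Itgb8, a partner of Itgav that activates TGF-beta, had 0, 12.2 and 21.6 in Stem, 1.41, 0 and 29.1 in AbsPro, 0.945, 18.6, 0 and 0.979 in SecPDG, 165, 141, 188, 232 and 116 in Tuft, 101, 78.01, 50.8, 93.5 and 52.6 in Enterocyte and 77.7 and 8.49 in EEC, with its highest mean in Tuft. All 5 Tuft libraries were above all Stem libraries, but the log2 fold change of 3.89 ± 1.46 (SE; adjusted p = 0.0422) by edgeR missed the threshold.

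Of the laminins among them, Lama1, the alpha chain of early embryonic basement membranes, had normalized counts of 65.02, 3.20 and 24.3 in Stem, 0, 0 and 4.69 in AbsPro, 0.945, 69.6, 8.42 and 7.83 in SecPDG, 229, 213, 286, 204 and 43.5 in Tuft, 537, 385, 459.8, 193 and 302 in Enterocyte and 982 and 24.3 in EEC. Lama2, the main alpha chain of muscle, had 0, 1.28 and 6.06 in Stem, 12.7, 0.813 and 46.9 in AbsPro, 120.1, 28.6, 0 and 0 in SecPDG, 143, 209, 252, 182 and 46.8 in Tuft, 325, 217, 369, 102 and 208 in Enterocyte and 513 and 148 in EEC. Lama4, the alpha chain of vessel walls, had 81.1, 8.32 and 24.9 in Stem, 40.3, 10.6 and 44.1 in AbsPro, 58.6, 21.1, 0.842 and 22.5 in SecPDG, 20.7, 145, 225, 138 and 21.8 in Tuft, 243, 171, 253, 74.1 and 130.2 in Enterocyte and 148 and 46.1 in EEC. In EEC, both Lama1 and Lama4 were high in EEC 1 and within the Stem range in EEC 2. Lamc3, a gamma chain of few tissues, had 0, 0.64 and 0 in Stem, 0, 0.813 and 2.81 in AbsPro, 0, 47.2, 20.2 and 4.90 in SecPDG, 287, 150.2, 85.9, 121 and 24.3 in Tuft, 261, 131, 313, 75.3 and 107 in Enterocyte and 569 and 71.6 in EEC.

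Per kilobase, the 18 members that were low in Stem had a median of 1.07 normalized counts in Stem, 2.11 in AbsPro, 2.47 in SecPDG, 20.3 in Tuft, 34.3 in Enterocyte and 53.6 in EEC. The floor, at 1.27, 2.51, 2.43, 17.03, 30.5 and 40.6, followed the same course. The median of the 19 other members did not follow it, at 105, 96.1, 88.1, 58.6, 94.8 and 81.0. Over the 22 libraries, the Spearman correlation of a member with the signal on the background families had a median of 0.87 (range 0.59 to 0.93) for the low members and -0.06 (range -0.80 to 0.94) for the others, as a description, since libraries share cell type and depth. With the higher background taken off, 1 member was called higher in Tuft, 6 in Enterocyte (Itgav, Itgb4, Itgb5, Lama3 and Lamb3 among them) and 0 in EEC, where 4 were lower (Itga5, Itga6, Itgb4 and Lamb2). That step cut the calls of a higher level over all genes too, from 1006 to 582 in Tuft, 1276 to 727 in Enterocyte and 1500 to 570 in EEC. Of 37 calls of a low member against Stem, that of Lama3 in Enterocyte was then the only one kept. The log2 fold change was at least as large as before in 20 of the 37 and smaller in 17, of which 5 were at 0. The low members are about as low in Stem as the floor there (1.07 against 1.27), so that the step can take their Stem counts to 0. A larger fold change after it therefore does not show a larger difference. The median SE of the 37 rose from 1.41 to 2.59.

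**Figure D5:**
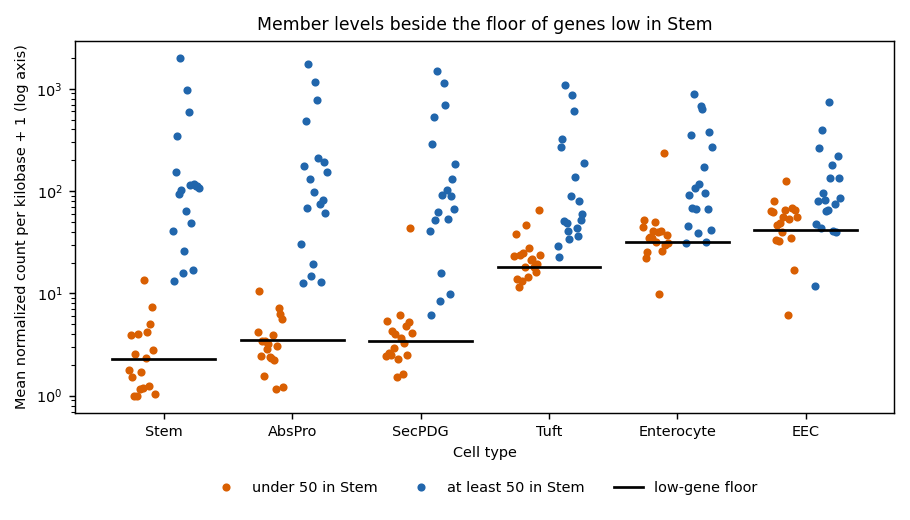
Mean normalized counts per kilobase plus 1 (log axis) of each member in each cell type, for the 18 members with a mean under 50 normalized counts in Stem and for the 19 others, with a line at the floor. Most low members lie near the floor, which rises from 1.27 in Stem to 40.6 in EEC. Lama3 in Enterocyte, at 236, and Lamb1 in SecPDG, at 42.5, are low members well above it, and the others lie mostly above it.

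Genes that act with integrins and laminins were read from 6 lists, compared with Stem. The counts of each list are set beside the shares of all genes called higher and lower, 0.342% and 0.0219% in AbsPro. Those shares were 2.41% and 0.689% in SecPDG, 4.42% and 2.03% in Tuft, 5.6% and 7.93% in Enterocyte, and 6.58% and 7.45% in EEC. No list was tested as a set. Of 27 genes of the adhesion complex inside the cell, 0 were called in AbsPro, 1 was lower in SecPDG, and 2 were lower in Tuft. In Enterocyte 2 were higher and 4 lower, and in EEC 4 were higher and 4 lower. Tns4, a tensin that binds the tails of beta subunits, led in SecPDG (log2 fold change -1.40) and Tuft (-1.23). In Enterocyte the gene of largest change was Parvg, with a mean of 2.51 in Stem and 126 in Enterocyte. In EEC it was Parvb, with 2.21 and 793. Of 4 hemidesmosome genes, Dst, a plakin that links Itgb4 to keratin, was the only one called, higher by 1.57 ± 0.39 on the log2 scale in Enterocyte (SE; adjusted p = 0.00293, edgeR) and by 2.07 in EEC (adjusted p = 0.000941, edgeR). Of 16 other basement membrane genes, 4 were higher in Tuft, 8 in Enterocyte and 8 in EEC and none was lower, led by Col4a2, Col4a6 and Nid1. Those 3 had means of 6.56, 1.49 and 2.47 normalized counts in Stem, and 10 of the 16 were under 50 there. Genes of the table with that profile were called higher in 25%, 39.8% and 46.2% of cases in the same 3 types, as given above, and the floor was not set beside these genes.

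Of 9 other laminin receptors and integrin partners, 2 were lower in Enterocyte and 1 in EEC. Rpsa, a ribosomal protein also named laminin receptor, led both, with a mean of 23439 in Stem and 2222 in EEC. Of 17 integrin ligands, 1 was higher in SecPDG, 2 in Tuft, 2 in Enterocyte and 2 in EEC, with 1 lower in Enterocyte and 2 in EEC. Nov, a matrix protein of the CCN family, led in SecPDG, with a mean of 25.9 in Stem and 2102 in SecPDG (log2 fold change 6.34, adjusted p = 1.3e-07, edgeR). It also led in Tuft, with 3064. Of 8 regulators of integrin activation, Kank1, an adaptor at adhesion sites, was lower in Enterocyte (log2 fold change -1.90) and EEC (-1.997), and 1 was higher in EEC. AbsPro had 0 calls in any of the 6 lists (edgeR), as for the members themselves.

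The genes whose cell type means followed a member most closely were found among 13187 genes, by the Spearman correlation over 6 cell type means (1 for all named here) and then by Pearson correlation over the 22 libraries. For Itga6 these were Ppp2cb (0.98), Eif3l (0.98) and Prps1l3 (0.97). For Itgb4 they were Vamp3 (0.81), Rad51d (0.79) and Tspan8 (0.79). For Itgb6 they were Themis3 (0.80), Hpgd (0.77) and Tacc2 (0.72).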

How the data were processed

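RNA of sorted colon crypt cells was sequenced in 22 libraries, with cell type and replicate number taken from the deposited labels. Counts per gene were deposited raw: the authors aligned trimmed reads to mm10 with STAR 2.5.2a and counted them with HTSeq 0.6.1p1 without strand. The authors made the skipped exon counts (inclusion and skipping reads per library) with rMATS, and the fraction of distal polyadenylation site use, deposited to 2 decimals, with DaPars. Both kinds of table also hold the authors' own differences, p-values and FDR, and the MAJIQ tables hold only such comparisons, and none of these was used. The 5 entries per library that name no gene were left out.

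Counts were tested with edgeR 4.0.16 (filterByExpr, TMM) in 1 quasi-likelihood fit over all 22 libraries, with cell type as the only term. Normalized counts are counts divided by the TMM effective library size and scaled to its mean, and levels per kilobase use GENCODE vM21 exon lengths. Skipped exon events with a mean of 10 or more reads were tested with edgeR on paired counts, and distal shares with limma 3.58.1 on log2((share + 0.01)/(1 - share + 0.01)). Scripts were tested on simulated data.

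The members and lists were chosen with earlier results of these data known. Members with a mean of 50 in a cell type where the family background was under 20% of it are given with every library, and all 37 met this. 1 member is not reported here. Of each list, the called gene of largest change per comparison with Stem was named. Alternatives were DESeq2 1.42.0, other scaling, no filter or minimum, a replicate block, background taken off, and each library left out in turn. Taking off a higher background, and leaving out EEC 1 and Enterocyte 1, 2 and 3 together, were added after seeing the data. P-values measure the spread between these libraries, some of which pool mice.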

Additional observations from a re-analysis of the deposited data

Results flagged for a closer look

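In 14 of 108 tests of a member within a cell type of 4 or 5 libraries, 1 library stood apart from the others by Dixon's test, which chance does in about 5% of tests. Of these, 7 fell on SecPDG 2: Itgb4 was at 6036.318 normalized counts there (others 3721 to 3951), and 6 low members were at Lama1 69.626 (others 0.945 to 8.42), Itga2b 49.733 (others 0 to 7.83), Itga8 29.84 (others 0 to 3.37), Itgb8 18.65 (others 0 to 0.979), Itgb2 12.433 (others 0 to 1.96) and Itgax 7.46 (others 0 to 0.979). A further 3 fell on Enterocyte 4: Itgb4 at 7884.676 (others 2497 to 3431), Itga3 at 3472.998 (others 1021 to 1678) and Lamb2 at 548.608 (others 282 to 357).

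The other 4 were spread over libraries. Itgb1 was at 4390.995 in Tuft 5 (others 2911 to 3236), Lamb2 at 607.93 in Tuft 3 (others 361 to 429), Lamb3 at 85.439 in Tuft 1 (others 295 to 329) and Lama5 at 17.962 in SecPDG 1 (others 122 to 138).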

How the results depend on the processing

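Of the 68 calls of a member in a comparison, 9 were kept in all 31 alternatives, among them Lama3 in Enterocyte against Stem and AbsPro and in EEC against SecPDG, Itga6 and Itgb4 in EEC against Stem and SecPDG, and Itga2 in EEC against SecPDG. DESeq2 kept 65 of the 68, background taken off 62, the replicate block 59, the higher background 14, and leaving out the 4 libraries of highest background 30. The cause was not tested. Leaving out those 4 gave fitted values below 0 for Itgax (-2.78 ± 3.59 in EEC against Stem and -4.23 ± 3.72 against SecPDG, SE) and Lama1 (-0.29 ± 1.57 in EEC against Stem). These were not called, and Itgax has 0 reads in EEC 2, the EEC library left, so that they show no lower level. Leaving out each library in turn gave ranges of -2.76 to 8.68 and -4.22 to 7.67 for Itgax and -0.50 to 5.18 for Lama1, with the lowest values without EEC 1. Without those 4, EEC has 1 library, which is assumed to vary like the other groups.

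The DESeq2 test called 3 members in AbsPro, 7 in SecPDG, 18 in Tuft, 24 in Enterocyte against AbsPro, 14 in Tuft against SecPDG and 26 in EEC against SecPDG. It also called more of all genes than edgeR, 420 against 83 in AbsPro, 1856 against 707 in SecPDG and 3835 against 1468 in Tuft. For the other 3 pairs, in that order, these were 3755 against 1159, 1655 against 205 and 6250 against 3419. Taking off the higher background left 0 calls in SecPDG, 1 in Tuft, 6 in Enterocyte, 4 in EEC, 2 in Enterocyte against AbsPro, 0 in Tuft against SecPDG, 9 in EEC against SecPDG and 11 for any difference. Calls over all genes fell as well, from 707 to 494, 1468 to 769, 3082 to 1257 and 3197 to 1419 in the first 4 of these. In the 3 pairs without Stem they fell from 1159 to 288, 205 to 77 and 3419 to 1709. Without the 4 libraries there were 6 in Enterocyte, 8 in EEC, 2 in Enterocyte against AbsPro, 3 in Tuft against SecPDG and 9 in EEC against SecPDG. Library totals and the family background taken off each gave 2 in SecPDG, no filter gave 2 in Tuft against SecPDG, and DESeq2 size factors 9 in Enterocyte against AbsPro. Over all genes, calls in SecPDG rose from 707 to 1206 with library totals and to 912 with that background taken off. Those in Enterocyte against AbsPro went from 1159 to 1246 with DESeq2 size factors. The other alternatives kept counts within 1.5 times.

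With each library left out in turn, AbsPro kept 0 calls, and calls ranged from 1 to 3 in SecPDG, from 3 to 16 in Tuft, from 11 to 21 in Enterocyte, 13 to 20 in EEC, 2 to 13 in Enterocyte against AbsPro, 0 to 4 in Tuft against SecPDG, 10 to 21 in EEC against SecPDG and 24 to 30 for any difference. Tuft fell to 4, 3 and 5 without Stem 1, 2 or 3 and to 6 without Tuft 3 and reached 16 without EEC 1. SecPDG had 2 without SecPDG 1 or EEC 2 and 3 without EEC 1. Enterocyte had 11 without Stem 2 or Stem 3. Enterocyte against AbsPro had 2 without AbsPro 2, 8 without AbsPro 3, SecPDG 1, SecPDG 2 or Enterocyte 4, 9 without Stem 1 or EEC 2, 11 without Stem 2 or Stem 3, and 13 without EEC 1. Tuft against SecPDG had 0 without SecPDG 3, 2 without Stem 2 or AbsPro 2, 3 without Tuft 5, and 4 without SecPDG 2, EEC 1 or EEC 2. EEC against SecPDG had 10 without SecPDG 4 or EEC 1.

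Replicate numbers shared across types did not pair the libraries: same-number pairs correlated from -0.39 to 0.49 (median 0.001, 44 pairs). The fit with the replicate block called 9 members in Enterocyte against AbsPro and 10 in EEC against SecPDG. Skipped exon and distal share tests called 0 members under every alternative. The main skipped exon test called no event of any gene, so it cannot show that members were unchanged. Depth limits the exon counts (25 reads in the first EEC library), and the 2 EEC libraries limit every EEC comparison.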
